A study of Rattus norvegicus with 48 samples.

Results

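The plantaris of rats that had no cast was compared between 2 lines bred for the opposite response to endurance training. The comparison used 12 of the 48 RNA-seq libraries of the series. They were the 6 uncast plantaris libraries of the low responder line (LRT) and the 6 of the high responder line (HRT), chosen by their labels alone. All 12 came from female rats of 14 months and breeding generation 19 and carried the treatment label control (CTRL). According to the study's methods the parents of each generation were picked by the gain in running capacity over treadmill training, and the lines were genetically heterogeneous, so a line is a breeding population and not a single genotype. The rats had themselves been through treadmill training as young adults, long before collection, so line and any lasting effect of that training cannot be told apart. The control rats were anaesthetized for muscle collection on the same day as rats whose hindlimb had been cast for 3 d, and the methods describe a puromycin injection shortly before collection. The hour of collection is not given in the sources used here. Each library is labelled as a separate sample, and the 6 libraries of a line are taken as 6 rats.

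Plantaris is a mixed plantar flexor of the hindlimb in which fast fibres predominate. Fast fibres draw much of their energy from glycogen and glycolysis, release calcium from a large sarcoplasmic reticulum and carry fast isoforms of the contractile proteins. Endurance training is known to move such muscle towards oxidative metabolism, and the capacity to make that change has a heritable part. The lines without a cast are compared here as they stood, with no disuse.

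The 12 libraries held between 27.0 and 34.0 M estimated counts, with a range of 30.2 to 34.0 M in LRT and 27.0 to 33.1 M in HRT (2-sided exact permutation test, p = 0.091). RNA integrity numbers (RIN) lay between 8.0 and 8.6. Values are given as CPM, which are counts per M of the library size after scaling by TMM. The low-count filter left 16960 genes for testing, and fold changes are log2 differences of LRT minus HRT, so a positive value is higher in LRT. Only 1148 of the 31998 Ensembl identifiers could be given a symbol. These symbols come from the study's lists of genes changed by the cast, some of which were drawn up with these same control libraries, so the named genes are not a neutral sample of the transcriptome. The muscle label was checked with cell markers. The summed level of 7 fast fibre markers was 22372 to 36282 CPM over the 12 libraries, against 2147 to 5258 CPM in the 12 uncast soleus libraries. The sum of 4 slow fibre markers was 326 to 616 CPM in the plantaris libraries and 1664 to 4470 CPM in uncast soleus.

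The lines were separated along the main axis of variation of the 12 libraries. Principal components were computed from log2 CPM, and the leading one (PC1) held 18.1% of their variance. Scores on PC1 were 19.1 ± 13.2 (SD, n = 6) in LRT and -19.1 ± 4.3 (SD, n = 6) in HRT, and no LRT library, from 1.9 to 38.5, reached the HRT range of -27.0 to -15.2. The 2-sided exact permutation test gave p = 0.0022, the smallest possible for 6 against 6, and an adjusted p of 0.0087 over the 4 components tested. The other three components did not separate the lines, with adjusted exact permutation p between 0.71 and 0.85. LRT rat 3 stood apart from the other 11 libraries. It scored 38.5 on PC1 and -45.9 on PC2, where the other libraries lay between -7.7 and 26.6, and 41.3% of its counts fell on its 20 most abundant genes, against 36.8% to 39.9% in the other 11. Its label and RIN of 8.3 do not set it apart, and the main counts are given with and without it. The scatter of PC1 against PC2 shows this library and the gap between the lines.

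**Figure D1:**
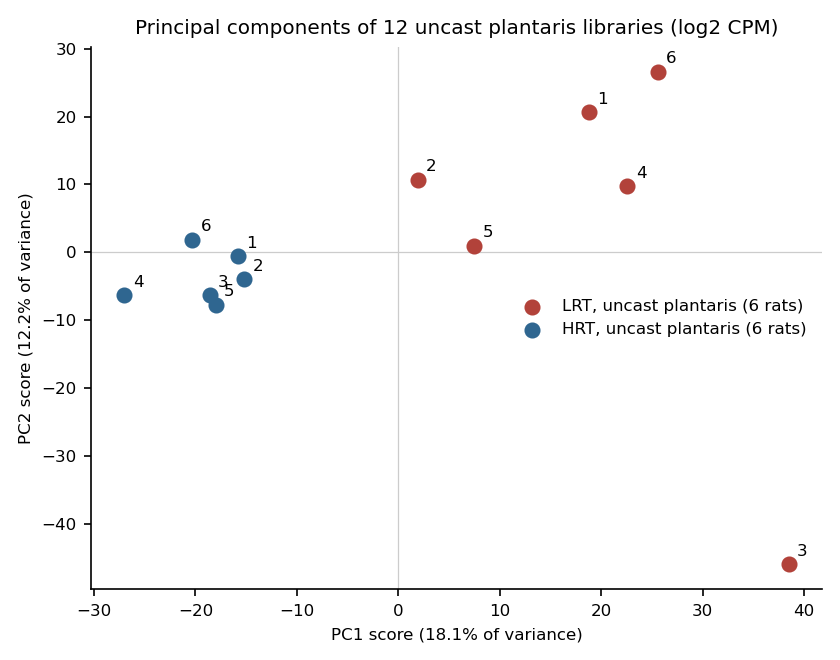
Scores of the 12 uncast plantaris libraries on PC1 (18.1% of variance, horizontal axis) and PC2 (12.2%, vertical axis) of centred log2 CPM, with LRT in red, HRT in blue and the replicate number beside each dot. The 6 LRT libraries lie at PC1 scores from 1.9 to 38.5 and the 6 HRT libraries from -27.0 to -15.2, with LRT rat 3 alone at -45.9 on PC2.

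Between LRT and HRT 89 genes passed an adjusted p of 0.05 with the quasi-likelihood test of edgeR, fitted over all 48 libraries with the 8 groups and RIN. This was 0.525% of the genes tested. Of these, 45 genes (0.265%) were higher in LRT and 44 (0.259%) higher in HRT. The median absolute log2 fold change of the 89 was 0.93, and 41 of them (0.242% of genes tested) exceeded 1, with 18 higher in LRT and 23 higher in HRT. These 41 became 19 without LRT rat 3, and 26, 27 and 26 without HRT rats 3, 4 and 6. The CPM of the 6 LRT and 6 HRT rats did not overlap for 51 of the 89, while such a separation was seen for 457 of all tested genes (2.69%). The total number of genes called, 89 with all libraries, was 32 without LRT rat 3, with 16 in each direction. This total was 52, 49, 54 and 51 without HRT rats 3, 4, 5 and 6. Without HRT rat 5 the split was 19 higher in LRT and 35 higher in HRT. DESeq2 called 160 genes (86 higher in LRT, 74 in HRT), and a minimum of 10 counts in every library left 56 (22 and 34). When library totals replaced TMM the total was 96, but the split became 23 higher in LRT and 73 higher in HRT, as the median difference over the tested genes moved from 0.009 to -0.087 on the log2 scale.

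The number of genes called differed with the libraries in the fit. When the 12 uncast plantaris libraries were fitted alone, with their own filter and scaling, 446 of 15466 genes passed (2.88%), of which 264 (1.71%) were higher in LRT and 182 (1.18%) higher in HRT. Of the 89 genes, 76 were among the 446. The median absolute log2 fold change of the 446 was 0.46, and 295 of them differed by less than 1.5-fold. The median SD of log2 CPM within a group was 0.198 in LRT and 0.173 in HRT for uncast plantaris, and between 0.212 and 0.292 in the other 6 groups, which also enter the 48-library fit. The part of the spread, the filter and the scaling in the higher count was not tested. The 12-library count was 380 without LRT rat 3 and ranged from 146, without HRT rat 4, to 763, without LRT rat 2. Below, a gene is said to be called when it passed in the 48-library fit, and values from the 12 libraries alone are named as such.

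Of the 89 called genes 10 carry a symbol, 6 higher in HRT and 4 higher in LRT. They make up 0.871% of the 1148 named genes tested, beside 0.525% of all tested genes, and the way the names arose allows nothing to be read from this share. The adaptor gene Shc3 had the largest log2 fold change of the named genes that were higher in HRT. Shc3 (ENSRNOG00000014366, chromosome 17) encodes an adaptor that links receptor tyrosine kinases to Ras signalling and is best known from neurons. Its lowest, median and highest CPM were 0.261, 0.336 and 1.44 in LRT and 2.18, 2.62 and 2.89 in HRT, so that the highest LRT rat was below the lowest HRT rat. The log2 fold change was -2.25 (SE 0.33, edgeR adjusted p = 5.9e-05), and the call held without each of the 12 libraries in turn. Samd5, on chromosome 1, which encodes a protein with a SAM interaction domain, was also separated. It lay at 0.280 to 1.05 CPM in LRT (median 0.432) and 1.32 to 1.93 in HRT (median 1.48), a log2 fold change of -1.5 (SE 0.29, edgeR adjusted p = 0.0058).

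The other four named genes higher in HRT had log2 fold changes between -0.83 and -1.15. Cfap69, a cilia and flagella associated gene on chromosome 4, was at 0.685, 1.24 and 1.79 CPM (lowest, median, highest) in LRT and 2.28, 2.83 and 3.14 in HRT, with a log2 fold change of -1.15 (SE 0.26, edgeR adjusted p = 0.025). Nxpe5, a member of the neurexophilin and PC-esterase family on chromosome 12, was at 1.19 to 2.46 CPM in LRT (median 2.31) and 3.32 to 5.02 in HRT (median 3.55), with a log2 fold change of -0.90 (SE 0.19, edgeR adjusted p = 0.015). Both genes were separated between the lines, but LRT rat 3 supplied the lowest Nxpe5 value. Fhl4 and Magee1 were called although the lines overlapped. Fhl4, a LIM domain gene on chromosome 7, ran from 1.26 to 2.01 CPM in LRT (median 1.5) and from 1.70 to 4.4 in HRT (median 2.82), with a log2 fold change of -0.96 (SE 0.23, edgeR adjusted p = 0.036). Magee1, a MAGE family gene on chromosome X whose protein binds dystrobrevin, ran from 0.701 to 1.30 CPM in LRT (median 0.834) and from 1.27 to 2.18 in HRT (median 1.70), with a log2 fold change of -0.83 (SE 0.20, edgeR adjusted p = 0.036).

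Of the named genes higher in LRT only Psd3 was measured at more than 8 CPM. Psd3 (chromosome 16) encodes an exchange factor for the small GTPase Arf6. It lay at 31.0, 38.1 and 45.3 CPM in LRT and 17.6, 22.8 and 31.1 CPM in HRT, so the lines met at 31 CPM, and the log2 fold change was 0.73 (SE 0.17, edgeR adjusted p = 0.026). The other three have provisional symbols and no function that can be stated. AABR07016572.1, a long non-coding RNA gene on chromosome 14, was separated at 5.12 to 7.74 CPM in LRT (median 6.74) and 1.26 to 4.65 in HRT (median 2.52), with a log2 fold change of 1.34 (SE 0.25, edgeR adjusted p = 0.0034). AABR07067023.1, a protein-coding gene on chromosome 9, was at 0.666, 1.12 and 2.53 CPM in LRT and 0.210, 0.337 and 0.633 CPM in HRT, with a log2 fold change of 1.89 (SE 0.39, edgeR adjusted p = 0.010). RGD1561667, on chromosome 1, had the largest named fold change, 2.72 (SE 0.62, edgeR adjusted p = 0.024). The other 5 LRT rats had between 0.786 and 1.30 CPM of RGD1561667, while LRT rat 1 was at 0.114 CPM, inside the HRT range of 0.0642 to 0.202. The dot plots of the 10 genes show the overlap in Fhl4, Magee1, Psd3 and RGD1561667, which fall outside the naming rule and were included after their values were seen.

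**Figure D2:**
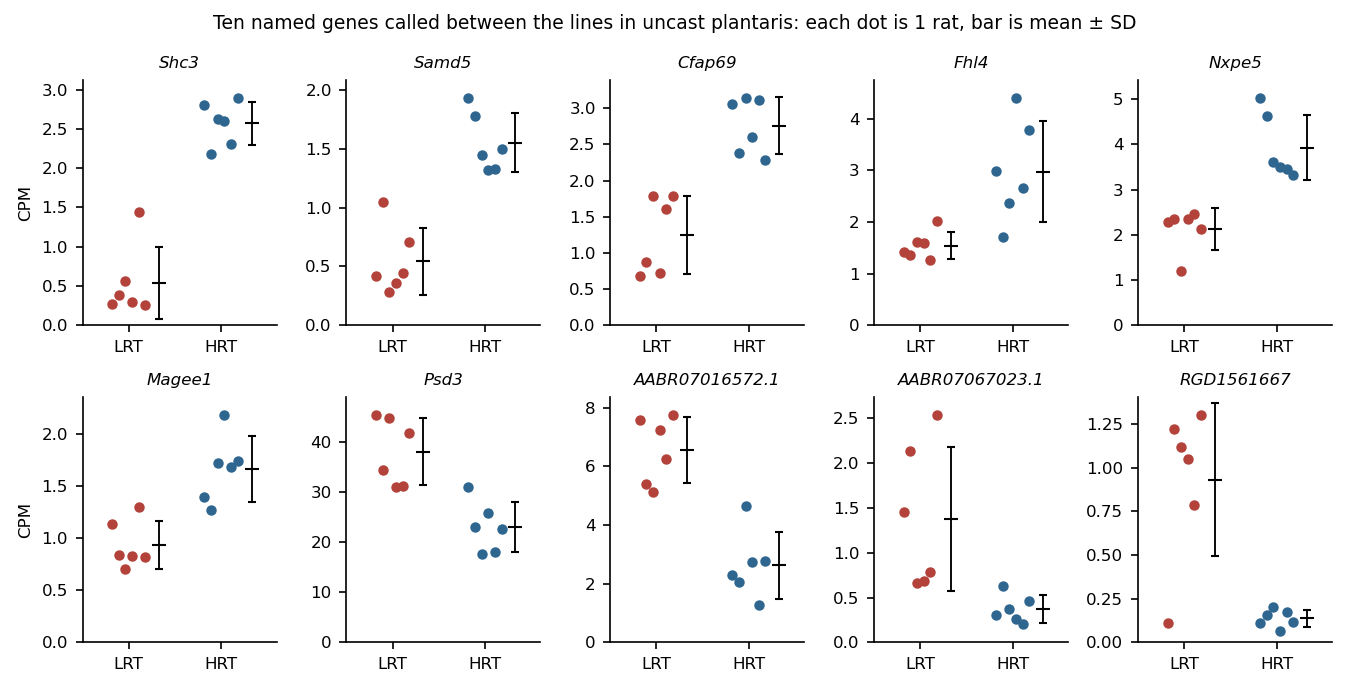
CPM (linear axes from 0) of the 10 named genes called between the lines, one panel per gene, with 1 dot per rat, LRT in red and HRT in blue, and a bar for the mean ± SD (n = 6). Shc3, Samd5, Cfap69, Nxpe5, AABR07016572.1 and AABR07067023.1 show no overlap, and the single low LRT dot of RGD1561667 is LRT rat 1.

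Several of these calls were lost when 1 rat was left out, for some genes with most choices of that rat. Shc3, Samd5, AABR07067023.1 and AABR07016572.1 stayed under 0.05 whichever of the 12 libraries was left out, as did the 4 identifiers given below. Nxpe5 lost its call without LRT rat 3 or HRT rat 1 (adjusted p = 0.064 and 0.054, edgeR), and RGD1561667 without LRT rat 3, HRT rat 4 or HRT rat 6 (0.059 to 0.083). Cfap69 lost it without LRT rats 1, 2 or 4 or HRT rats 3 or 5 (0.058 to 0.087). Psd3 lost it without LRT rats 1, 3 or 6 or HRT rats 2, 3, 5 or 6 (0.056 to 0.10). Magee1 passed only when LRT rat 1, LRT rat 5, HRT rat 1 or HRT rat 2 was the one left out, with adjusted p up to 0.13 otherwise, and Fhl4 passed only without LRT rat 6, HRT rat 2 or HRT rat 3, with adjusted p up to 0.16 otherwise. The direction of these 10 genes was the same in every such fit. Limma-voom did not call AABR07067023.1 (adjusted p = 0.098), RGD1561667 (0.30), Fhl4 (0.093) or Magee1 (0.11). Psd3 did not pass with library totals (edgeR adjusted p = 0.056) or with the 24 plantaris libraries alone (0.097), nor Fhl4 and Magee1 when all genes with any count were tested (0.059 each).

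The remaining 79 called genes have no symbol here, and the 2 with the smallest p in each direction are given by identifier. ENSRNOG00000042253 had the smallest p of all genes. It was measured at 11.1, 12.1 and 12.8 CPM in LRT and 2.73, 3.26 and 3.74 CPM in HRT, a difference of 1.90 on the log2 scale (SE 0.11, edgeR adjusted p = 4.1e-16). The 6 rats of each line lay within a narrow band, and the same levels were seen in the other groups, with LRT at 8.73 to 13.1 CPM and HRT at 2.81 to 4.73 CPM over immobilized plantaris and both soleus groups. ENSRNOG00000053862 had 17 to 28 counts in the 6 LRT libraries and 0 to 2 in the HRT libraries, with an edgeR adjusted p of 1.8e-06. The LRT rats had 1 to 12 counts in immobilized plantaris and 0 to 3 in uncast soleus. ENSRNOG00000049099 had 0 counts in each of the 6 LRT libraries and 7 to 24 in the HRT libraries (edgeR adjusted p = 9.3e-07). Against a floor of 3 counts over the LRT group, 0.018 CPM, its HRT mean of 0.534 CPM was at least 29.8-fold higher. In the other 18 LRT libraries this gene had at most 1 count. ENSRNOG00000009263 lay at 25.4, 33.8 and 40.6 CPM in LRT and 39.0, 102 and 107 CPM in HRT, with a log2 fold change of -1.41 (SE 0.20, edgeR adjusted p = 2.4e-05). One HRT rat, number 2, was at 39.0 CPM and within the LRT range.

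The called genes were then looked up in libraries outside the comparison. By the study's methods both muscles were taken from the same 24 rats, so the uncast soleus libraries are from the same animals as the uncast plantaris libraries and are not independent of them, and the 48-library fit has no term for the rat. In immobilized plantaris, which came from other rats of both lines, 83 of the 89 had the same direction and 38 (42.7% of the 89) were called in that direction, and none was called in the opposite direction. There 410 of 16960 genes (2.42%) were called between the lines, and the 38 were 9.27% of these. In uncast soleus 79 of the 89 had the same direction, 29 (32.6%) were called in it and 1 was called against it. In that muscle 246 genes (1.45%) were called, and the 29 were 11.8% of these. Without LRT rat 3, HRT rat 3 or HRT rat 4 in the uncast plantaris comparison, the 38 became 22, 24 and 23 and the 29 became 16, 19 and 18, and without HRT rat 6 the 29 became 18. In all 3 comparisons 16 genes were called with the same direction, and none of them carries a symbol.

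Of the 10 named genes 4 were called in one of the other comparisons. Shc3 was also lower in LRT in immobilized plantaris, with a log2 fold change of -1.07 (SE 0.3, edgeR adjusted p = 0.043), as was Samd5 with -1.24 (SE 0.31, edgeR adjusted p = 0.024). In soleus Shc3 was at -0.66 (edgeR adjusted p = 0.28) and Samd5 at -0.28 (edgeR adjusted p = 0.68). Cfap69 had a log2 fold change of -1.37 in uncast soleus (edgeR adjusted p = 0.0029) and 0.02 in immobilized plantaris (edgeR adjusted p = 0.98). AABR07067023.1 was higher in LRT in soleus by 1.80 (edgeR adjusted p = 0.00073) and stood at 1.29 in immobilized plantaris (edgeR adjusted p = 0.070). The remaining 6 named genes were not called in either of the other comparisons. The difference of the line effects was tested itself. Between uncast and immobilized plantaris no gene passed with edgeR (smallest adjusted p = 0.36), while 1060 genes had an unadjusted p under 0.05 and limma-voom called 1. Between uncast plantaris and uncast soleus 2 genes passed (0.0118%), 1 of which was among the 89, and neither has a symbol. DESeq2 called 16 there. The plot of the line difference in the 3 pairs of groups sets these values side by side.

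**Figure D3:**
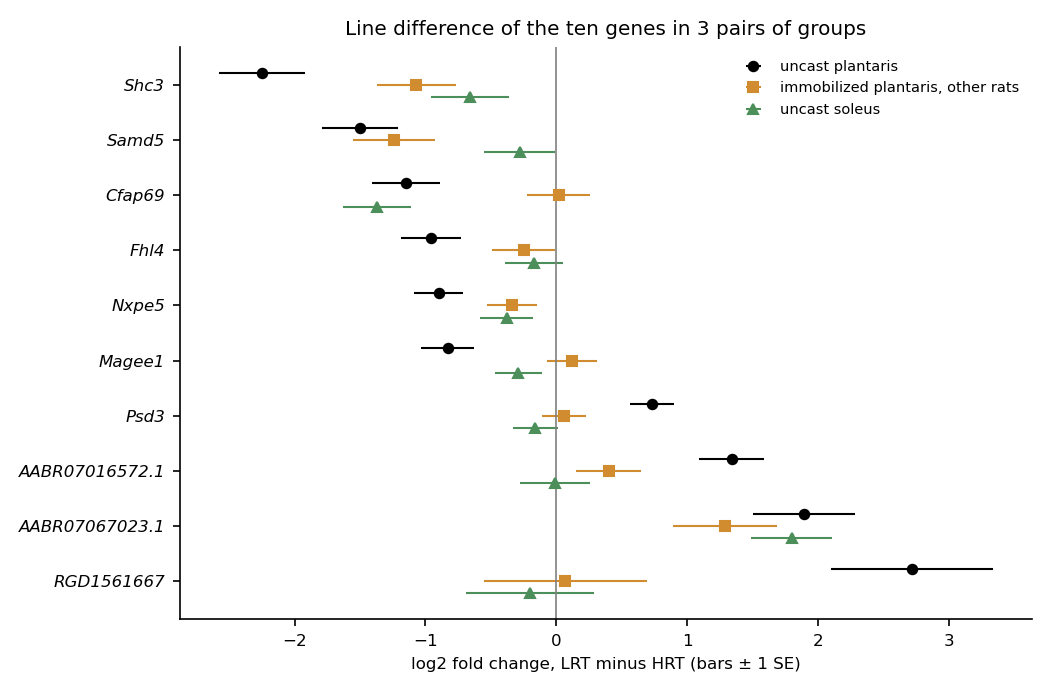
Log2 fold change of LRT minus HRT (horizontal axis, bars ± 1 SE) of the 10 named genes in uncast plantaris (black circles), immobilized plantaris of other rats (orange squares) and uncast soleus (green triangles). Shc3 and Samd5 lie below 0 in both plantaris comparisons, while Cfap69 lies below 0 in both uncast muscles and at 0.02 in immobilized plantaris.

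Several glycolytic and 6 contractile or calcium genes were called higher in LRT, with the 12 libraries alone. The list of glycolysis and glycogen genes had 25 members, all tested. None was called in the 48-library fit, where 1 had an unadjusted p under 0.05, yet 20 had a positive and 5 a negative log2 fold change, and the median was 0.29 against 0.009 for all tested genes. With library totals in place of TMM the median was 0.20. In the 12-library fit 7 of the 25 (28.0%, beside 2.88% of all genes) were called, all higher in LRT, and the levels of 5 members were separated between the lines (beside 2.69% of all genes), namely 4 of the 7 and Pgk1, which was not called. The count called higher in LRT fell to 2 without LRT rat 1, LRT rat 4 or any of HRT rats 1 to 5. It fell to 4 without LRT rat 3 or LRT rat 6, and was 9 without LRT rat 2. Without HRT rat 3, 1 member was called higher in HRT. Ppp1r3c and Fbp2 passed in each of these 12 fits, and the other 5 passed in 2 to 5 of them with the direction kept. Such lists hold named genes only, many of which the study drew from the response of these control rats' lines to the cast, so the share is not independent of these libraries. In the 12-library fit 5.84% of all named genes were called, and of the 329 named only through soleus comparisons 13 (3.95%) were. The median of the same 25 genes was 0.38 in uncast soleus and -0.25 in immobilized plantaris.

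Of these genes, Ppp1r3c, which encodes the subunit that targets protein phosphatase to glycogen, had the largest log2 fold change. Its lowest, median and highest CPM were 816, 1018 and 1137 in LRT and 535, 626 and 703 in HRT, with every LRT rat above every HRT rat. The log2 fold change was 0.68 (SE 0.08, edgeR adjusted p = 0.0031) with the 12 libraries alone and 0.70 (SE 0.34, edgeR adjusted p = 0.45) in the 48-library fit. Fbp2, the muscle fructose bisphosphatase, was likewise separated, at 103 to 136 CPM in LRT (median 114) and 63.0 to 92.7 CPM in HRT (median 83.6), with a log2 fold change of 0.48 in the 12-library fit (edgeR adjusted p = 0.013). The enzymes of the glycolytic chain differed less. Ldha, the muscle-type lactate dehydrogenase subunit, was at 3406 to 4430 CPM in LRT and 2663 to 3311 CPM in HRT. The muscle phosphoglycerate mutase Pgam2 was at 2232 to 2805 CPM in LRT and 1915 to 2165 CPM in HRT. Both were separated, while Eno3, the muscle enolase, overlapped at 6682 to 8809 CPM in LRT and 5885 to 6851 CPM in HRT. Tpi1 (triosephosphate isomerase) and Gpi (glucose-6-phosphate isomerase) overlapped as well. The log2 fold changes of these 5 enzymes lay between 0.29 and 0.37 in the 12-library fit, with edgeR adjusted p between 0.030 and 0.046.

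The list of sarcomere, triad and calcium genes gave 6 of 32 members (18.8%, beside 2.88% of all and 5.84% of named genes) called in the 12-library fit, again all higher in LRT, and none in the 48-library fit. With single libraries left out it was between 1, without LRT rat 4, HRT rat 2 or HRT rat 3, and 7, without LRT rat 2, at most 3 without LRT rats 1 or 6 or HRT rats 1, 4 or 5, and Myoz1 was the member that passed every time. Pvalb, the calcium buffer parvalbumin, was at 1981, 2332 and 3116 CPM in LRT and 832, 1382 and 1790 CPM in HRT, a log2 fold change of 0.85 (SE 0.17, edgeR adjusted p = 0.027) in the 12-library fit. Myoz1, a Z-disc protein of fast fibres, was at 2835 to 4105 CPM in LRT and 2155 to 2372 CPM in HRT, with a 12-library log2 fold change of 0.51 (edgeR adjusted p = 0.015). Neither gene overlapped between the lines. The fast calsequestrin Casq1, which binds calcium in the sarcoplasmic reticulum, differed by 0.45 (edgeR adjusted p = 0.035), with 1811 CPM in the lowest LRT rat and 1810 CPM in the highest HRT rat. Mylpf, the fast myosin regulatory light chain, differed by 0.36 (edgeR adjusted p = 0.043), and Srl, the reticulum glycoprotein sarcalumenin, by 0.22 (edgeR adjusted p = 0.038). Mybph, a myosin binding protein, differed by 1.00 (edgeR adjusted p = 0.044) with overlapping lines, at 30.7 to 63.0 CPM in LRT and 14.4 to 34.9 CPM in HRT. Over the whole list 22 members had a positive and 10 a negative log2 fold change in the 48-library fit, with a median of 0.07 beside 0.009 for all genes (-0.03 beside -0.087 with library totals). The list median was 0.11 in uncast soleus and -0.29 in immobilized plantaris. In the 12-library fit 11 of the 32 members had an unadjusted p under 0.05, all higher in LRT, beside 3201 of all 15466 genes in that fit. The dot plots of 12 of these genes show the size of each gap against the level.

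**Figure D4:**
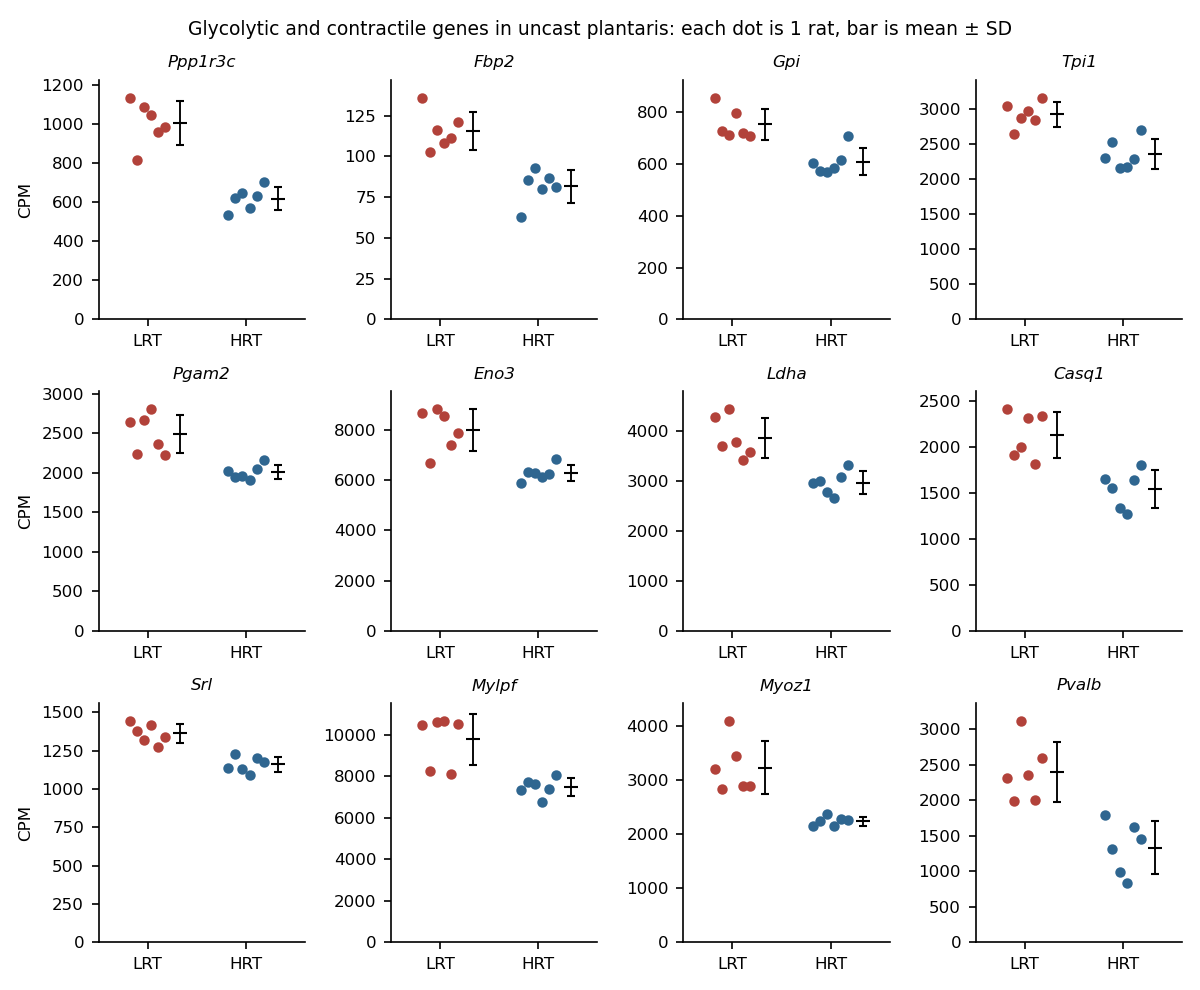
CPM (linear axes from 0) of 7 glycolytic and 5 contractile genes called higher in LRT in the 12-library fit, one panel per gene, with 1 dot per rat, LRT in red and HRT in blue, and a bar for the mean ± SD (n = 6). The lines are separated for Ppp1r3c, Fbp2, Ldha, Pgam2, Casq1, Srl, Mylpf, Myoz1 and Pvalb, and overlap for Gpi, Tpi1 and Eno3.

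The genes Casq1, Eno3, Mylpf, Myoz1 and Pvalb are also fast fibre markers here, and all 7 genes of that marker list had a positive log2 fold change (median 0.37, and 0.27 with library totals). The median line difference of these 7 genes was 0.74 in uncast soleus and -0.23 in immobilized plantaris. The summed level of the list was 26928, 33094 and 36282 CPM (lowest, median, highest) in LRT and 22372, 24393 and 25888 CPM in HRT, without overlap. The part of fibre composition in the differences was not tested. In whole muscle, a larger share of a fibre type and more RNA of these genes per fibre cannot be told apart. The slow fibre markers had a median of 0.07, and their sum was 326 to 599 CPM in LRT and 430 to 616 CPM in HRT.

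Genes of mitochondrial respiration did not move together. Of the 40 members 18 had a positive and 22 a negative log2 fold change, with a median of -0.02 in the 48-library fit. With the 12 libraries alone 3 (7.5%, beside 2.88% of all and 5.84% of named genes) were called. Sqrdl, the sulfide quinone oxidoreductase, was higher in LRT by 1.05 (SE 0.19, edgeR adjusted p = 0.016), at 30.1 to 56.8 CPM in LRT and 13.5 to 31.4 CPM in HRT, and passed with any library left out. Mss51, a muscle regulator of mitochondrial metabolism, was higher in LRT by 0.67 (edgeR adjusted p = 0.039), at 349 to 692 CPM and 209 to 337 CPM. Coq9, which acts in the synthesis of coenzyme Q, was lower in LRT by 0.40 on the log2 scale (12-library edgeR adjusted p = 0.023), at 255 to 351 CPM in LRT and 366 to 458 CPM in HRT. Mss51 and Coq9 were separated between the lines, but with single libraries left out Mss51 passed in 3 and Coq9 in 10 of the 12 fits (adjusted p up to 0.10 and 0.055). Of the 25 lipid genes none was called in either fit with all libraries, but the 12-library fit called 3 (1 higher in LRT, 2 higher in HRT) without LRT rat 3, and 1 without HRT rat 1 or HRT rat 6. The desaturase gene Scd ranged from 7.32 to 41.0 CPM in LRT and 4.12 to 18.4 CPM in HRT, with a log2 fold change of 1.48 (SE 0.56, edgeR adjusted p = 0.28).

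Of 10 circadian clock genes, 5 had an unadjusted p under 0.05 in the 48-library fit, where 10.7% of all genes did, all higher in LRT, and none was called there. The clock is a feedback loop in which Arntl and its partners drive their own repressors and output genes through E-box elements, and it runs in muscle fibres. In the 12-library fit 4 members higher in LRT and 1 higher in HRT had an unadjusted edgeR p under 0.05, beside 3201 of all 15466 genes. In that fit 2 (20%, beside 2.88% of all and 5.84% of named genes) were called. Ciart, a repressor in this loop, was at 2.12, 4.39 and 8.02 CPM in LRT and 0.964, 1.64 and 2.16 CPM in HRT, a log2 fold change of 1.57 (SE 0.37, edgeR adjusted p = 0.040), with the lines touching near 2.1 CPM. Bhlhe41, a repressor that competes for E-boxes, was separated at 12 to 20.2 CPM in LRT and 6.56 to 10.5 CPM in HRT, with a log2 fold change of 0.90 (SE 0.17, edgeR adjusted p = 0.019). Bhlhe41 passed with each of the 12 libraries left out (adjusted p up to 0.049), and Ciart in 3 of the 12 such fits. The output genes Dbp and Tef and the repressor gene Per2 had log2 fold changes of 0.83, 0.48 and 0.41 in the 48-library fit, with edgeR adjusted p of 0.31, 0.24 and 0.45. The other 5 members were negative, and the list median was 0.18. Whether the lines were sampled at the same hour is not given, and the part of collection time was not tested.

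The promoters of members of the clock and glycogen lists that were called in the 12-library fit are shown for the canonical E-box, whose letters are CACGTG on both strands, being its own reverse complement. The sequences are those of RefSeq on build GRCr8, a reference strain and not these lines, and cover 250 bases before to 50 bases after the annotated start, in lower case with each CACGTG in capitals. Ciart and Bhlhe41 were chosen from the clock list and Ppp1r3c and Ldha from the glycolysis list, after their letters had been seen. Ciart is at chr2:186112197-186112496 (minus strand), Bhlhe41 at chr4:180569306-180569605 (minus), Ppp1r3c at chr1:243878478-243878777 (minus) and Ldha at chr1:106507842-106508141 (plus).
Ciart: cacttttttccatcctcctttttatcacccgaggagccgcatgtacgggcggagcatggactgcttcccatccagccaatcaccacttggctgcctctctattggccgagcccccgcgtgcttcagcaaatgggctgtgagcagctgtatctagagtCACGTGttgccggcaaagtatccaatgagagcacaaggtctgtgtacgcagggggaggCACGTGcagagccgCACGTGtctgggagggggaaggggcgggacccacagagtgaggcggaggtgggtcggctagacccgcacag
Bhlhe41: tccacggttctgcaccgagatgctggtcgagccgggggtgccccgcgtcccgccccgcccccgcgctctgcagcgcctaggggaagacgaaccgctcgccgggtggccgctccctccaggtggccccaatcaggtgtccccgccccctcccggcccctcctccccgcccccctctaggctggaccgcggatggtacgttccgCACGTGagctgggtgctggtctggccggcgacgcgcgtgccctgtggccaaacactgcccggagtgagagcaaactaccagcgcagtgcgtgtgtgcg
Ppp1r3c: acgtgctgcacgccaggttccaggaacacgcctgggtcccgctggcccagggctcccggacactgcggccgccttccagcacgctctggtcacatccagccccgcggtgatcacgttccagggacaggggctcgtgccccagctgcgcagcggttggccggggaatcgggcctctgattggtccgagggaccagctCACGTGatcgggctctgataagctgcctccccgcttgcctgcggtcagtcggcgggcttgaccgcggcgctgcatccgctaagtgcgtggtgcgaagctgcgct
Ldha: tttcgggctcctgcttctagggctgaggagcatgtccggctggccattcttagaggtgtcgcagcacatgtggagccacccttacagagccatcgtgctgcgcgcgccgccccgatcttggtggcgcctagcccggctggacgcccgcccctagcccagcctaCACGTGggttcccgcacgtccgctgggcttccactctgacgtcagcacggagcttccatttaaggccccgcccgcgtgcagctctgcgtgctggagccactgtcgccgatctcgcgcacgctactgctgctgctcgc

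The Ciart promoter held 3 copies of CACGTG, beginning 93, 35 and 21 bases before the start, and the other three promoters held 1 each, at 48 bases in Bhlhe41, 54 in Ppp1r3c and 87 in Ldha. Of all 33469 promoter entries 2148 (6.42%) held at least 1 copy and 19 (0.057%) held 3 or more. Promoters were found for 9 of the 10 clock genes, and 3 of these held the letters, in Ciart, Bhlhe41 and Tef. For the glycolysis list 19 of the 25 genes were found, with 20 promoters, of which 5 held them (25%), in Ldha and Ppp1r3c and in Gaa, Pfkfb3 and Ppp1r3d, which were not called (12-library log2 fold changes 0.04, 0.53 and -0.05). The called genes Eno3, Gpi, Pgam2 and Tpi1 had none in this window, and Fbp2, also called, was not among the genes with the letters. A match describes the letters of this window and is not evidence of binding, and Dbp and Per2, which had none here, were also at positive fold changes.

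Of 38 stress and redox genes 4 were called in the 12-library fit, each higher in HRT. Cat, which encodes catalase, was at 70.5 to 127 CPM in LRT and 115 to 157 CPM in HRT, a log2 fold change of -0.65 (SE 0.13, edgeR adjusted p = 0.023). Osgin1, an oxidative stress response gene, was at -0.72 (edgeR adjusted p = 0.039). Atf5, a transcription factor of the stress response, was at -0.57 (edgeR adjusted p = 0.043), and Chac1, a glutathione-degrading enzyme induced in that response, at -0.82 (edgeR adjusted p = 0.041). These 4 genes belong to lists of 23 and 15 members, with 2 called in each (8.7% and 13.3%, beside 2.88% of all and 5.84% of named genes), whose medians in the 48-library fit were 0.02 and 0.06. Among 35 ubiquitin, proteasome and autophagy genes the median was -0.01. In the 12-library fit 1 member (2.86%, beside 2.88% of all genes) was called, Asb13, a substrate receptor of a ubiquitin ligase, at 3.61 to 4.68 CPM in LRT and 5.19 to 6.25 CPM in HRT (log2 fold change -0.46, edgeR adjusted p = 0.016). Asb13 passed with any library left out, whereas Cat passed in 8, Osgin1 in 4, Atf5 in 3 and Chac1 in 2 of the 12 such fits.

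The remaining lists gave few or no calls. Across the 15 functional lists 346 genes were tested. None was called in the 48-library fit, where 29 (8.38%) had an unadjusted p under 0.05 beside 10.7% of all genes, while DESeq2 called 2, both higher in HRT, and the 12-library fit called 24 (6.94%, beside 5.84% of named genes), with 18 higher in LRT and 6 higher in HRT. Over all named genes that fit called 47 higher in LRT and 19 higher in HRT. With single libraries left out the 18 became 5 to 24 and the 6 became 1 to 12. Without LRT rat 2 that fit called 6 members of the extracellular matrix list (1 higher in LRT, 5 in HRT), and 1 of the insulin list without LRT rat 2 or HRT rat 6, where it called none with all 12 libraries. Of the extracellular matrix list 4 of 37 had an unadjusted p under 0.05 in the 48-library fit, beside 10.7% of all genes. All 4 had negative values, among them Spon2, a secreted matrix protein, at -0.87 (SE 0.25, edgeR adjusted p = 0.099). In the leukocyte and antigen presentation list of 25, the smallest adjusted p belonged to RT1-CE16, a class I histocompatibility gene. It was at 0.105 to 0.786 CPM in LRT and 0.270 to 3.35 CPM in HRT, with a log2 fold change of -2.04 (SE 0.53, edgeR adjusted p = 0.061), and was called in uncast soleus at -2.4 (edgeR adjusted p = 0.012). As histocompatibility genes have close copies and differ between rats, its level is uncertain. Tbc1d10c of the same list, a regulator of lymphocyte activation, was higher in LRT by 0.90 in the 12-library fit (edgeR adjusted p = 0.035), which held in 5 of the 12 fits with a library left out. In the insulin, growth factor and myokine list of 21, Irs1, the insulin receptor substrate, was separated at 47.4 to 61.2 CPM in LRT and 64.4 to 189 CPM in HRT, but did not pass in either fit (12-library log2 fold change -0.88, edgeR adjusted p = 0.055). Ostn, which encodes the secreted peptide musclin, ranged from 25.5 to 253 CPM in LRT and from 8.45 to 48.9 CPM in HRT, with a 48-library log2 fold change of 1.71 (SE 0.47, edgeR adjusted p = 0.085). The interferon-induced list (10 genes, median -0.20), the heme and iron list (13, median 0.25), the neuromuscular junction list (17, median 0.06) and the immediate early list (18, median 0.08) held no call in either fit. The plot of all lists shows 13 of the 24 called members in the glycolysis and sarcomere rows.

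**Figure D5:**
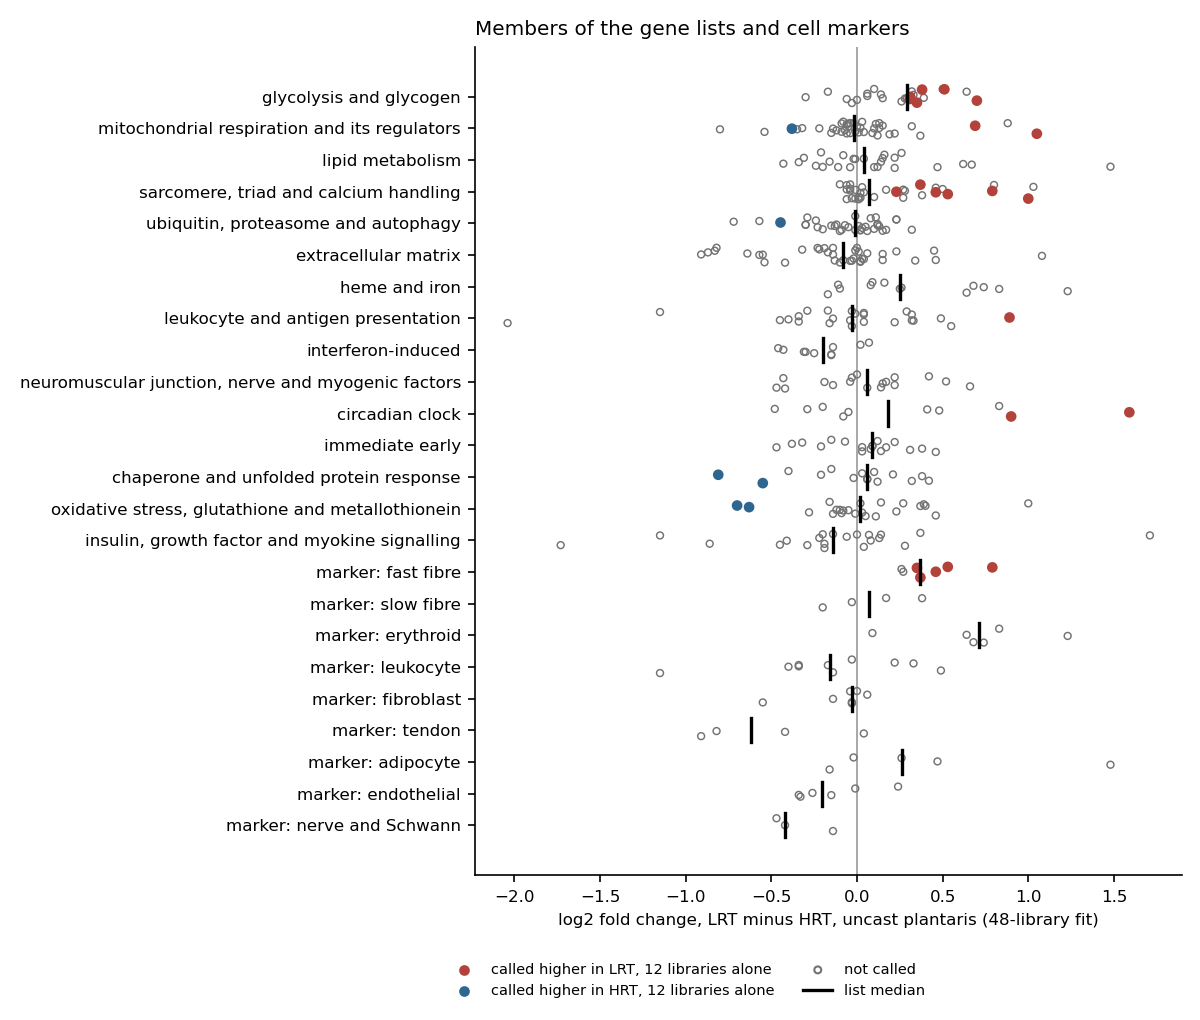
Log2 fold change of LRT minus HRT in uncast plantaris from the 48-library fit (horizontal axis), 1 circle per gene, for each gene list and cell marker list (rows), with a black line at the list median. Filled circles passed in the 12-library fit, red higher in LRT and blue higher in HRT. The glycolysis row has 7 filled circles, all red, and its median is at 0.29.

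Cell markers of tissue other than fibres overlapped between the lines in their summed level. Erythroid markers had the largest median, 0.71 with 6 of 6 positive, none of them called in either fit. Their sum ran from 284 to 1122 CPM in LRT and from 265 to 406 CPM in HRT. Of the other lists the medians were -0.16 for 10 leukocyte, -0.03 for 7 fibroblast, -0.62 for 4 tendon, 0.26 for 5 adipocyte, -0.21 for 6 endothelial and -0.42 for 3 nerve markers, with no member called in either fit. The tendon sum was 13.3 to 34.3 CPM in LRT and 21.8 to 39.5 CPM in HRT, and no marker of any list was at 0 counts in all 12 libraries. The part of blood or tendon in the results was not tested.

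The 8 genes that the study singled out were followed whatever their p. The muscle ubiquitin ligases did not pass. Fbxo32 (atrogin) was at 115, 188 and 395 CPM in LRT and 144, 266 and 297 CPM in HRT, with a log2 fold change of -0.24 and an approximate 95% interval of -0.88 to 0.39. Trim63 (MuRF) was at 206 to 271 CPM in LRT and 176 to 221 CPM in HRT, with an interval of -0.45 to 0.92. Trim35, another ligase, had an interval of -0.32 to 0.29, the translation factor gene Eif4g3 one of -0.34 to 0.33, the histone deacetylase gene Hdac4 one of -0.86 to 0.78 and the glycerol phosphate dehydrogenase gene Gpd1 one of -0.46 to 1.10. These intervals come from the fit over all libraries and leave room for a difference in either direction. In that fit edgeR adjusted p for these 6 genes lay between 0.84 and 1. None of the 6 passed in the 12-library fit either. Gpd1 was at 0.3 there (edgeR adjusted p = 0.085) and Trim63 at 0.22 (0.16), each with an unadjusted p under 0.05. Fbxo32, Hdac4, Trim35 and Eif4g3 had negative values there, with edgeR adjusted p from 0.61 to 0.87. The seventh is Ppp1r3c, described above.

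The eighth, LOC100362027, named as a ribosomal protein gene on chromosome 7, was present or absent by rat. In LRT it had 0 counts in rats 1, 2, 3, 4 and 6 and 1005 counts (34.3 CPM) in rat 5, while the HRT rats ranged from 29.1 to 60.3 CPM with a median of 32.5. The edgeR log2 fold change was -2.86 (adjusted p = 0.23), and the adjusted p was 7.7e-05 without LRT rat 5. With limma-voom the gene was called at -9.13 (adjusted p = 5.7e-06). In uncast soleus the LRT libraries numbered 1, 2, 4 and 6 again had 0 counts, number 3 had 3 and number 5 had 914, and in immobilized plantaris all 6 LRT rats had 29.3 to 39.1 CPM. The 0 counts were thus seen in uncast LRT rats and in no immobilized one. Ribosomal protein genes have many near-identical copies, between which the quantification could move reads, so its counts are uncertain.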

How the data were processed

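RNA of plantaris and soleus was sequenced in 48 libraries of 8 groups with 6 each. According to the study's methods and the submitters' processing notes, the authors quantified transcripts of Rnor_6.0 with Salmon 0.9.1 and summed them per gene with tximport after scaling for length. The deposited values are estimated counts per gene, not normalized between libraries, of which 66.0% were not whole, and they were rounded here. The labels and the methods name different library kits, so whether strand was used is not settled, and overlapping or antisense genes cannot be told apart. The labels put all libraries in a group, and none was left out.

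The reported fit used edgeR 4.0.16 in R 4.3.3 with filterByExpr, TMM, quasi-likelihood tests on all 48 libraries, the 8 groups and RIN, and Benjamini-Hochberg adjustment over all tested genes. LRT and HRT were compared by contrast. SE is the fold change over the root of F, and intervals are 1.96 SE. Log2 CPM used a prior count of 2. The edgeR p-values of this fit set a difference against a spread estimated over all 48 libraries, not over the compared libraries alone. They treat the libraries as independent, as the fit has no term for the rat. Count floors cover counting error only. Among the 30 pairs of libraries within a line the mean chi-square per gene ran from 12.0 to 86.0, above the value of 1 for counting noise, so no library was a copy of another. Symbols were read from the study's gene tables, with no values taken. Promoters of RefSeq (GRCr8) were matched by gene ID.

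The gene lists, the named genes and the comparison itself were chosen with earlier results of these data known. The naming rule took called genes with a symbol whose lines did not overlap (the 12 largest fold changes per direction, and 3 with provisional symbols), called members of each list (up to 6), the study's 8 genes, and the 2 genes without a symbol with the smallest p per direction. Genes called only with the 12 libraries alone, and others outside the rule, were named after their values were seen. In simulated counts on 16813 genes, edgeR recovered 34%, 68%, 92% and 90% of 50 genes each changed 1.5, 2, 3 and 4-fold, with 6% false calls. Those counts were drawn independently from the fitted spread, with no cast or RIN effect. They had no link between muscles of a rat and no outlying library, so these shares need not hold for the real libraries. Alternatives were DESeq2 1.42.0, limma-voom (limma 3.58.1), other scalings, filters and covariates, fewer libraries, a block for replicate number, stricter thresholds and each library left out. The fits that left out a library of the 12 alone were added after seeing the data. Exact tests and figures used Python 3.11.15.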

Additional observations from a re-analysis of the deposited data

Results flagged for a closer look

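In 140 groups of 6 values (genes described above or with an unadjusted p under 0.05 in a list, component scores and library measures), 9 held a library far from the other 5 by Dixon's criterion, where chance alone gives about 1 in 20. LRT rat 3 was the library in 4 of the 9, with the lowest Nxpe5 (1.19 CPM), the lowest Trim35 (213 CPM), the lowest Prodh1 (3.19 CPM) and the lowest PC2 score (-45.9). LRT rat 1 had the lowest RGD1561667 (0.114 CPM), and LRT rat 5 the only LRT counts of LOC100362027 (34.3 CPM). Among HRT rats, number 2 had the lowest ENSRNOG00000009263 (39.0 CPM), number 3 the highest Tbc1d10c (6.85 CPM) and number 6 the highest Gpi (710 CPM).

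The line effect differed between uncast plantaris and uncast soleus by the interaction test for 2 genes, neither of which has a symbol.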

How the results depend on the processing

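With DESeq2 160 genes were called (86 higher in LRT, 74 in HRT), 65 of them also in immobilized plantaris and 58 in uncast soleus, with 16 for the interaction with muscle and 2 list members higher in HRT. Limma-voom called 1 gene for the interaction with the cast. Library totals gave 23 and 73. A minimum of 10 counts in every library left 56 (22 higher in LRT), 15 over a log2 fold change of 1, 18 and 17 shared with immobilized plantaris and soleus, and 1 for the interaction with muscle. The 24 plantaris libraries alone called 1 list member higher in LRT, and the 12 libraries alone 446 (264 and 182), with 18 and 6 list members; these 2 fits hold no soleus, and the smaller no immobilized muscle, so the comparisons with them were not run there. An adjusted p under 0.01 left 21 (8 and 13) and under 0.001 left 9 (4 and 5). Leaving out each library gave 32 to 99 genes (16 to 57 higher in LRT, 16 to 42 in HRT), 19 to 49 over a log2 fold change of 1, 22 to 36 shared with immobilized plantaris, 16 to 26 with soleus, 0 to 1 and 2 to 4 for the interactions, and 0 to 1 list members each way. In the 12-library fit it gave 146 to 763 (85 to 424, 61 to 339), and 5 to 24 and 1 to 12 list members. The PC1 separation held in every alternative run, with exact p of 0.0022 to 0.0043.

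Same-numbered LRT and HRT libraries did not deviate together (r from -0.075 to 0.028, none of 6 over 0.1, none best matched to its own number), so the numbers do not pair the 2 lines. Whether a number marks the same rat in plantaris and soleus is not given in the labels. With replicate number as a block 100 genes were called (49 and 51), and LOC100362027 passed (-4.83, adjusted p = 0.021).

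Of 475 values of the 22 named genes under 22 settings, 418 kept direction and side of the threshold, 42 lost and 4 gained a call, and 11 changed sign, all in genes near 0. The Eif4g3 log2 fold change was at 0.007 with any-count genes and at 0.006, 0.028, 0.021, 0.024 and 0.01 without LRT rats 1, 4 and 5 and HRT rats 2 and 5, with a lowest leave-one-out value of -0.033 and -0.10 with library totals. The Trim35 log2 fold change was at 0.068, 0.003 and 0.008 without LRT rat 3 and HRT rats 2 and 6, with a lowest leave-one-out value of -0.057 and -0.11 with library totals, and the Hdac4 log2 fold change at 0.033 and 0.034 without LRT rat 6 and HRT rat 3, with a lowest leave-one-out value of -0.11 and -0.14 with library totals. The causes were not tested. Low counts limit Shc3, Samd5, Cfap69, Magee1, AABR07067023.1, RGD1561667, ENSRNOG00000053862 and ENSRNOG00000049099, each with fewer than 100 counts in every one of the 12 libraries.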
